A study of Mus musculus with 6 samples.

Results

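The haematopoietic integrin genes were taken as 10 named genes, the 6 alpha chains Itga4, Itga5, Itga6, Itgal, Itgam and Itgax and the 4 beta chains Itgb1, Itgb2, Itgb3 and Itgb7. Every probe set annotated to one of these genes alone was used, 25 probe sets in all, and 0 probe sets listed a member beside another gene. The 10 members stand among the 18193 genes that at least 1 probe set measured alone. The arrays compared 3 RNA samples labelled as Eklf knockout, homozygous for the loss of Eklf (gene symbol Klf1, a zinc finger transcription factor of red cells), with 3 labelled wild type. All 6 samples were labelled as early erythroid progenitors sorted from liver of 13.5 day old fetuses of strain C57BL/6. The sort used CD71 and Ter119 antibodies and a dead-cell dye, and each sample was put on 1 Affymetrix array. The labels cite a line whose targeting clones came from a strain 129 library. How closely the genomes of both groups match near the target was not tested. No other agent or allele is named for either group, and the RNA samples are described as independent of each other.

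Integrins are receptors of 1 alpha and 1 beta chain that span the cell membrane and bind matrix proteins or counter-receptors on other cells, once talin and kindlin attach to the tail of the beta chain. The beta chain sorts them into families. Itgb2 pairs with Itgal, Itgam and Itgax into the leukocyte integrins of lymphoid and myeloid cells, while Itgb1 pairs with Itga4, Itga5 and Itga6 into receptors for Vcam1, fibronectin and laminin. In fetal liver, Itga4 with Itgb1 is known for holding erythroblasts to the central macrophage of the erythroblastic island, and Itga5 with Itgb1 for fibronectin binding by erythroid progenitors. Itgb3 joins Itga2b as the fibrinogen receptor of megakaryocytes and platelets, and Itgb7 joins Itga4 on lymphocytes and mast cell precursors.

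Klf1 did not separate the groups, at 2480 ± 1058 on the knockout-labelled arrays, against 3081 ± 827 on the wild-type-labelled arrays (mean signal ± SD, n = 3 each), with an exact two-sided permutation p of 0.5, so each group keeps the name on its label. Where the probe set lies relative to the deleted part of the gene was not known from the sources used here. Why Klf1 did not separate the groups was not tested. The median signal over all probe sets was 204 to 218 on the knockout-labelled arrays and 97.7 to 139.7 on the wild-type-labelled arrays, while the trimmed mean was 500 on every array. The median log2 difference of all 12799 genes tested, knockout minus wild type, was 0.14 as deposited, and it became -0.02 with quantile normalization, 0.0038 with cyclic loess and -0.68 with median centring. It was 0.94 in the dimmest quartile of genes and -0.25 in the brightest. Of all genes tested, 48.7% passed limma's test at an adjusted p under 0.05, with 27.9% higher and 20.8% lower, and 3571 higher and 2661 lower calls became 2224 and 2740 with quantile normalization, 2292 and 2658 with cyclic loess and 1085 and 6133 once arrays were centred on their medians. All 13 erythroid markers with a probe set passed the intensity filter, and on the knockout-labelled arrays 10 of them were higher, 0 lower.

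At the brightest probe set of each gene, 8 of the 10 integrin genes differed between the groups, 6 lower and 2 higher on the knockout-labelled arrays, against the 48.7% of all genes called. The leukocyte integrin chains Itgb2, Itgal and Itgam were the furthest down, between 4.32- and 5.93-fold, and Itga4, Itga6 and Itgb7 were between 1.98- and 2.85-fold lower, although other Itga4 probe sets rose. Itgb1 and Itgb3 were 2.24- and 2.76-fold higher, and Itgax and Itga5 did not pass the test. The median log2 difference of the members was -1.12, beside 0.14 over all genes tested. The knockout-labelled and wild-type-labelled signals did not overlap for 8 of the 10 members, against 59.3% of all genes tested. These were the same 8 that were called, from the same arrays, so the overlap adds no separate evidence. Calls depended on brightness over all genes, so the members are read against their own quartile. In the brightest quartile, which held 5 members, 15.1% of genes were called higher and 35.3% lower. In the next quartile, with 3 members, these shares were 16.8% and 27.9%. In the one below it, with Itga5 and Itgax, they were 35.1% and 14.2%, and in the dimmest, with 0 members, 44.6% and 5.72%. All 10 members passed the filter, each with all 6 arrays above the filter signal of 98.6. After median centring the 8 calls were 0 higher and 8 lower, since Itgb1 and Itgb3 were no longer called and Itga5 and Itgax were.

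**Figure D1:**
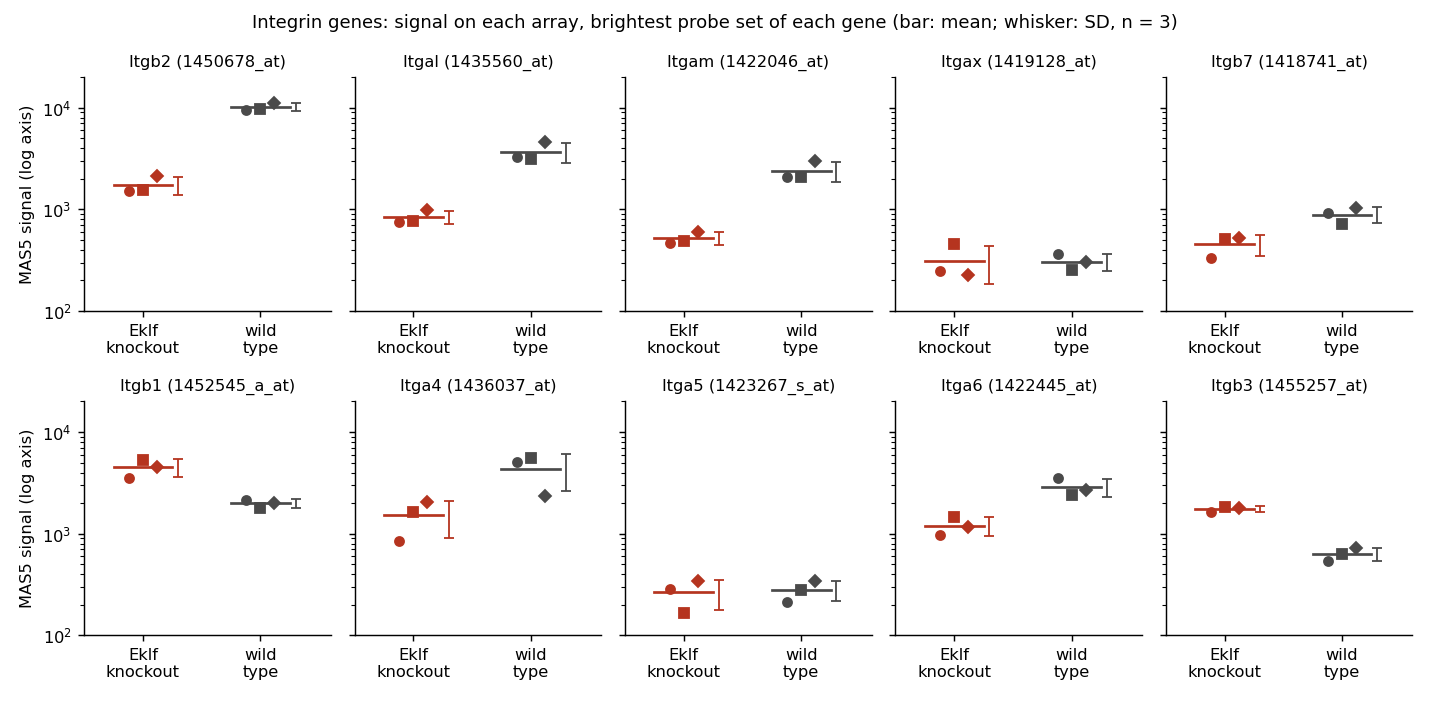
MAS5 signal (log axis) of the brightest probe set of each integrin gene on the 3 knockout-labelled (red, left) and 3 wild-type-labelled arrays (grey, right), with the mean as a bar and the SD as a whisker. Itgb2, Itgal, Itgam, Itgb7, Itga4 and Itga6 lie lower in the knockout-labelled arrays, Itgb1 and Itgb3 higher, and the groups overlap for Itgax and Itga5.

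Itgb2, the common beta chain of the leukocyte integrins, showed the greatest fall of the 10 members. Its signal was 1501, 1552 and 2153 on the knockout-labelled arrays, against 9544, 9760.4 and 11199 on the wild-type-labelled arrays. Every knockout-labelled value was below every wild-type-labelled one. The means were 1735 ± 363 and 10168 ± 899 (SD, n = 3 each), which is -2.57 on the log2 scale (SE 0.18, limma adjusted p = 1.39e-05). Of all genes tested, 1.34% had a lower difference.

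Itgal, the alpha chain that joins Itgb2 into the receptor for Icam proteins on lymphocytes, had 759, 776 and 992 on the knockout-labelled arrays, against 3279, 3119 and 4609.9 on the wild-type-labelled arrays. The groups did not overlap, and the log2 difference was -2.11 ± 0.20 (SE, limma adjusted p = 5.63e-05). A second, dimmer probe set of Itgal read 514, 423 and 455 on the knockout-labelled arrays and 862, 1041 and 1659 on the wild-type-labelled ones, a smaller difference of -1.30 ± 0.26 (SE, limma adjusted p = 0.00432 over all probe sets). Both probe sets placed all 3 knockout-labelled arrays below the others.

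Itgam, the alpha chain of the complement receptor of granulocytes and macrophages, has 1 probe set. It gave 468, 487 and 605 on the knockout-labelled arrays, against 2061, 2105 and 3001 on the wild-type-labelled arrays. The groups lay far apart, with means of 520 ± 73.9 and 2389 ± 530 (SD, n = 3 each) and which is -2.19 on the log2 scale (SE 0.20, limma adjusted p = 5.05e-05).

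Itgax, the alpha chain best known from dendritic cells, was the member of the Itgb2 family that did not pass the test as deposited. Its signals were 250.3, 459 and 227 on the knockout-labelled arrays, against 363, 251 and 305 on the wild-type-labelled arrays. The groups overlapped, and the log2 difference was -0.03 ± 0.31 (SE, limma adjusted p = 0.944). With array 2 of the knockout-labelled group at 459 and the others near the wild-type-labelled values, the spread was large for a dim gene, and the test does not show equality. With quantile normalization the difference was -0.53 (limma adjusted p = 0.254) and with cyclic loess -0.52 (limma adjusted p = 0.229). After median centring it was -0.84 (adjusted p = 0.0424), where all genes were shifted down.

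Itgam and Itgax are next to each other among the protein-coding genes of chromosome 7 in the RefSeq annotation of GRCm38.p6, so their upstream sequences are shown together. Only 6 of the 10 members matched the table of RefSeq promoters. The 250 bases before each annotated start are printed 5′ to 3′ on the strand of the gene. Capitals mark matches, on either strand, to the letters CCNCNCCC (the CACCC box that Eklf is known to bind), AGATAA or TGATAA (forms of the site of Gata factors) and GAGGAA (the core of the site of Spi1, a factor of myeloid and B cells). No match to one motif overlapped a match to another. In Itgam (chr7:128062390-128062639, plus strand) there were 2 matches to GAGGAA and 0 to CCNCNCCC, and in Itgax (chr7:128129300-128129549, plus strand) 1 match to AGATAA and 0 to CCNCNCCC or GAGGAA.
Itgam: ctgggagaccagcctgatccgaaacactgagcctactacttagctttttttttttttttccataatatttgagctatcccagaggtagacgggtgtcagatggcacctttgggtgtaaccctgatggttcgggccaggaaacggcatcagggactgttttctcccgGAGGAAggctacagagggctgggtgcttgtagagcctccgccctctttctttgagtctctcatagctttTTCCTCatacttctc
Itgax: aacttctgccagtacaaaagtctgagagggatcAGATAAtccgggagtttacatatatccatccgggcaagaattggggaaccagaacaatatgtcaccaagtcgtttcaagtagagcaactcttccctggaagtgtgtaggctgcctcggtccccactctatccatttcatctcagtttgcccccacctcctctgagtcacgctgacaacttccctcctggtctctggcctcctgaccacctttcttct
Of 32851 promoters of this length in the table, 45.9% held CCNCNCCC, 23.3% GAGGAA, 9.99% AGATAA and 7.94% TGATAA. A match says only that the letters are there.

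Itgb7, the beta chain that pairs with Itga4 on lymphocytes and mast cell precursors, had 331, 515 and 517 on the knockout-labelled arrays, against 929.8, 714 and 1026 on the wild-type-labelled arrays. The groups did not overlap, and the log2 difference was -0.98 ± 0.24 (SE, limma adjusted p = 0.00891). Without knockout-labelled array 1, the lowest of its group, it was -0.77 (limma adjusted p = 0.021).

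The fall of Itgb2, Itgal, Itgam and Itgb7 went with lower signals of marker genes of other blood cells. The counts below stand beside 20.8% of all genes tested called lower and 27.9% called higher. Of 13 tested granulocyte and monocyte markers 10 were lower and 0 higher, and their summed signal was 106914 to 215530 on the knockout-labelled arrays and 215487 to 251084 on the wild-type-labelled arrays, ranges that just touch. Of 14 tested lymphoid markers 11 were lower and 1 higher, with summed signals of 1939 to 2687 on the knockout-labelled arrays, against 29200 to 44531 on the wild-type-labelled arrays. Of 9 mast cell, basophil and eosinophil markers 6 were lower and 0 higher, with sums of 6343 to 7371 in knockout-labelled and 16959 to 20946 in wild-type-labelled arrays. Of 12 stem and progenitor markers 9 were lower and 1 higher, with sums of 10609.7 to 10942.5 in knockout-labelled and 30434 to 31902 in wild-type-labelled arrays. Macrophage markers went the other way, with 11 of 14 tested higher and 1 lower and sums of 16312 to 23772 in knockout-labelled and 11524 to 13712 in wild-type-labelled arrays. Under the filter lay 3 of the 17 lymphoid markers with a probe set and 4 of the 18 macrophage markers, and 0 in the granulocyte, mast cell and stem cell lists. The sums cover every marker with a probe set, also those under the filter. Of the 11 higher macrophage markers, 3 had a wild-type-labelled mean under the filter signal of 98.6. They passed the filter through the group in which they were high. Of the 11 lower lymphoid markers, 3 had a knockout-labelled mean under it, and the 1 higher had a wild-type-labelled mean under it. The part of these cell types in the integrin result was not tested, and in sorted bulk RNA fewer cells of a type and less RNA per cell cannot be told apart.

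Itgb1, the beta chain of the receptors for fibronectin, laminin and Vcam1, was higher on the knockout-labelled arrays. Its brightest probe set gave 3549, 5365 and 4580.5 on the knockout-labelled arrays, against 2164, 1779 and 2012 on the wild-type-labelled arrays. The groups did not overlap. The means were 4498 ± 911 and 1985 ± 194 (SD, n = 3 each), which is 1.16 on the log2 scale (SE 0.18, limma adjusted p = 0.000988).

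A further 2 probe sets of Itgb1 passed the filter. The brighter, 1426918_at, gave 2336, 3659.7 and 2718 on the knockout-labelled arrays, against 1701, 1581 and 1649 on the wild-type-labelled arrays, which is 0.80 on the log2 scale (SE 0.19, limma adjusted p = 0.00968). The dimmer, 1427771_x_at, gave 195, 411 and 332 on the knockout-labelled arrays, against 194, 186 and 135 on the wild-type-labelled arrays. It did not pass the test (0.82 ± 0.35, SE, limma adjusted p = 0.0858). All 3 probe sets had every knockout-labelled value above every wild-type-labelled one, though for the last the margin was about 1 signal unit. The other 3 probe sets of Itgb1 lay under the filter. After median centring the difference of Itgb1 was 0.35 (limma adjusted p = 0.286) at the brightest probe set and -0.02 at 1426918_at, and with the mean of all 6 probe sets it was 0.89 (adjusted p = 0.065).

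Itga4, the alpha chain of the Vcam1 receptor, gave opposite answers at different probe sets. The brightest, 1436037_at, had 854, 1634 and 2052 on the knockout-labelled arrays, against 5115, 5515 and 2354 on the wild-type-labelled arrays. The groups did not overlap, although wild-type-labelled array 3 was the lowest of its group and close to knockout-labelled array 3. The log2 difference was -1.51 ± 0.38 (SE, limma adjusted p = 0.0102).

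The second falling probe set, 1456498_at, had 279, 402 and 889 on the knockout-labelled arrays, against 1347, 1785 and 887 on the wild-type-labelled arrays. Array 3 of both groups was nearly equal, so the groups touched, and the log2 difference was -1.47 ± 0.41 (SE, limma adjusted p = 0.0196). With 1 array left out in turn, 3 of 6 fits lost this call (without knockout-labelled array 1 or 2, or wild-type-labelled array 2, adjusted p 0.0597 to 0.0664).

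The probe set 1450155_at rose, with 1319, 1405 and 1339 on the knockout-labelled arrays, against 332, 306 and 293 on the wild-type-labelled arrays. These were the tightest groups among the Itga4 probe sets, and the log2 difference was 2.13 ± 0.18 (SE, limma adjusted p = 5.76e-05). The probe set 1421194_at rose too, with 908, 729.7 and 872 on the knockout-labelled arrays, against 431, 542 and 250.3 on the wild-type-labelled arrays (1.10 ± 0.29, SE, limma adjusted p = 0.0153). At both, every knockout-labelled value was above every wild-type-labelled one. The call of 1421194_at was lost after median centring (0.29, adjusted p = 0.409) and without knockout-labelled array 3 (1.07, adjusted p = 0.0535). The annotation lists both rising probe sets with the same reference mRNA and the falling ones each with another sequence record. The fifth probe set, 1427615_at, lay under the filter.

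Between probe sets of Itga4 the ratio within an array does not change when an array is multiplied by a factor. The log2 ratio of 1436037_at over 1450155_at was lower by 3.64 on the knockout-labelled arrays, a 12.5-fold shift, with groups that did not overlap and an exact two-sided permutation p of 0.1, the smallest that 3 against 3 arrays allow. The ratio of the 2 falling probe sets, 1436037_at over 1456498_at, differed by -0.04 (exact two-sided permutation p = 0.9). With the mean of its 5 probe sets Itga4 had a log2 difference of 0.32 (limma adjusted p = 0.413). These probe sets therefore do not give one direction for Itga4 RNA.

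**Figure D2:**
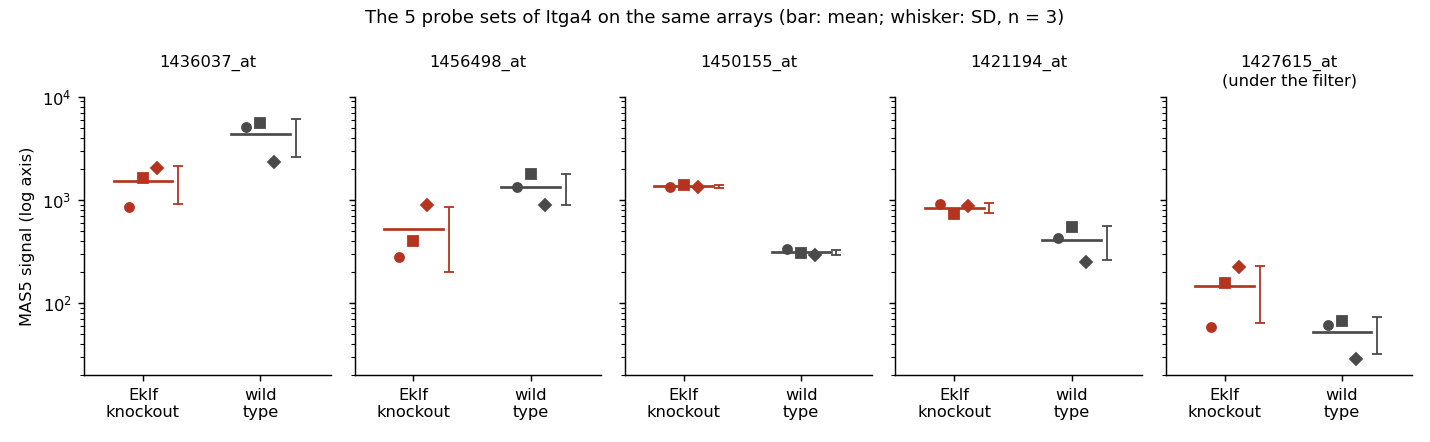
MAS5 signal (log axis) of each of the 5 Itga4 probe sets on the same 6 arrays, knockout-labelled in red on the left and wild-type-labelled in grey on the right, with mean and SD. 1436037_at and 1456498_at lie lower and 1450155_at and 1421194_at higher on the knockout-labelled arrays, and 1427615_at is under the filter.

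The upstream sequence of Itga4 is shown because it held the most matches to the CACCC box letters of the 6 promoters read, 4 in 250 bases (chr2:79255176-79255425, plus strand, GRCm38.p6, RefSeq), with 0 matches to the other letters. The capitals mark CCNCNCCC on either strand.
Itga4: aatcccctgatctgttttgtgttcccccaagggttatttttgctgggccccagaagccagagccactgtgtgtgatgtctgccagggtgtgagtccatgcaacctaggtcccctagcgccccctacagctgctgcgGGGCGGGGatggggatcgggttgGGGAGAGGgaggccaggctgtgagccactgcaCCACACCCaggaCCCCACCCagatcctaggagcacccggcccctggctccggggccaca
Itga5 and Itgb7 held 2 such matches each, Itgb1 held 1, and Itgam and Itgax held 0. Among these 6 genes the promoters with matches belong to genes that rose (Itgb1), fell (Itgb7), did not pass the test (Itga5) or had probe sets of both directions (Itga4).

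Itga5, the alpha chain of the classical fibronectin receptor, did not pass the test. Its brightest probe set had 287, 167 and 341 on the knockout-labelled arrays, against 215, 281 and 344 on the wild-type-labelled arrays. The groups overlapped fully, with which is -0.12 on the log2 scale (SE 0.33, limma adjusted p = 0.784). The next probe set, 1423268_at, had 281, 301 and 293 on the knockout-labelled arrays, against 118, 177 and 214 on the wild-type-labelled arrays, so the knockout-labelled values were all higher, but it missed the threshold (0.82 ± 0.31, SE, limma adjusted p = 0.057) and was 0.0080 after median centring. The other 2 probe sets lay under the filter, and with the mean of all 4 the difference was 1.08 (adjusted p = 0.0254). The dim signals leave the direction of Itga5 unsettled.

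Itga6, the alpha chain of the laminin receptor of stem and progenitor cells, fell. Its brighter probe set had 976, 1475 and 1160.4 on the knockout-labelled arrays, against 3561, 2429 and 2688 on the wild-type-labelled arrays. The groups did not overlap, and the log2 difference was -1.27 ± 0.21 (SE, limma adjusted p = 0.00126). The other probe set, 1422444_at, had 487, 801 and 843 on the knockout-labelled arrays, against 1252, 1244 and 1034 on the wild-type-labelled arrays, in the same direction (-0.76 ± 0.24, SE, limma adjusted p = 0.0296). That second call did not hold in 6 of 17 alternatives, such as quantile normalization (adjusted p = 0.0573) and cyclic loess (0.0564).

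Itgb3, the beta chain of the fibrinogen receptor of platelets, rose. Its brighter probe set had 1621, 1838 and 1781 on the knockout-labelled arrays, against 544, 637 and 724 on the wild-type-labelled arrays, which is 1.47 on the log2 scale (SE 0.17, limma adjusted p = 0.000193). The dimmer probe set, 1421511_at, had 375, 567 and 711 on the knockout-labelled arrays, against 29.7, 32.2 and 51.4 on the wild-type-labelled arrays. Its difference was 3.86 ± 0.40 (SE, limma adjusted p = 0.00016). The groups lay apart at both. The wild-type-labelled signal of 1421511_at was under the filter signal, so it passed the filter through the group in which it was high, and its fold rests on dim values. After median centring the brighter probe set gave 0.65 (limma adjusted p = 0.0521 among genes) and the dimmer one 3.05.

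Itga2b, the alpha partner of Itgb3 in platelets, had 3768, 4492 and 4224 on the knockout-labelled arrays, against 730.3, 715 and 768 on the wild-type-labelled arrays (log2 difference 2.49 ± 0.15, SE, limma adjusted p = 6.99e-06). Itgav, the partner of Itgb3 in the vitronectin receptor, did not pass at its brightest probe set (-0.18 ± 0.17, SE, limma adjusted p = 0.403), while another of its probe sets gave 1.86. Of 13 megakaryocyte markers the knockout-labelled arrays had 10 higher and 1 lower, with a summed signal of 37464 to 48801 on those arrays and 9715 to 10931 on the wild-type-labelled arrays. Over all genes tested, 27.9% were called higher and 20.8% lower. All 13 markers, which include Itga2b, passed the filter. Their part in the rise of Itgb3 was not tested.

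**Figure D3:**
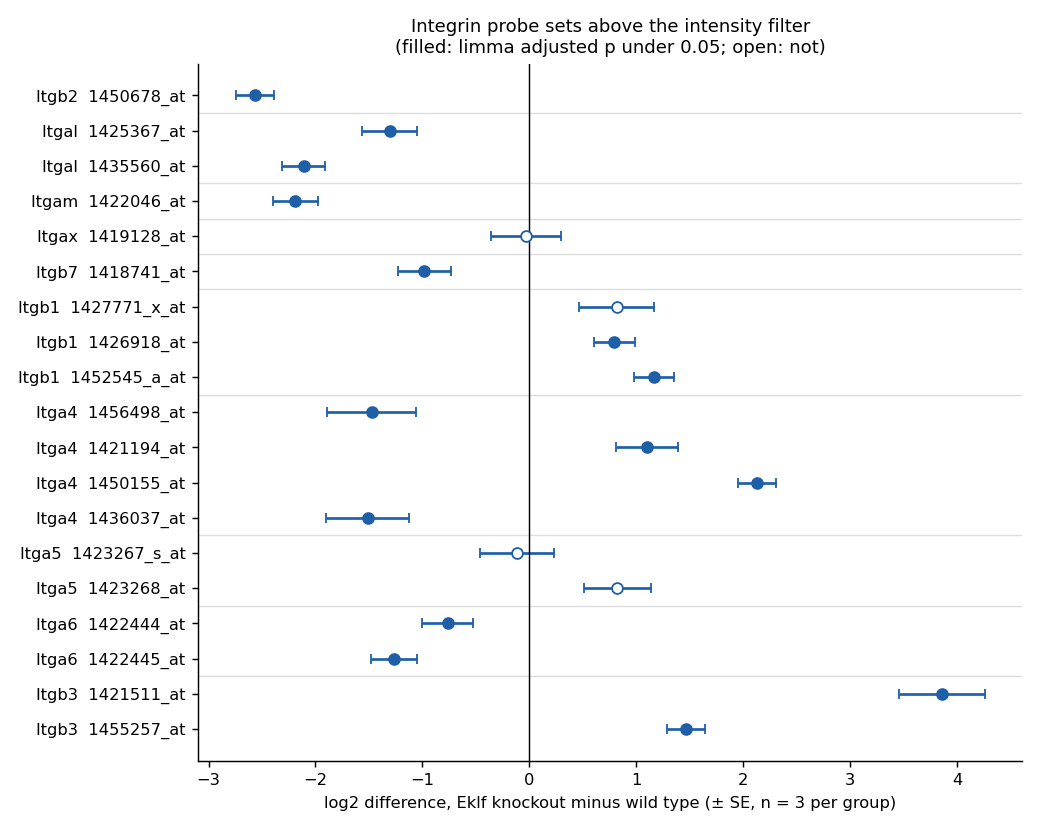
Log2 difference, knockout minus wild type, with its SE (n = 3 per group) for the 19 integrin probe sets that passed the filter, filled where limma's adjusted p over all probe sets was under 0.05. Of these, 9 are called lower, 6 higher and 4 are open, and Itga4 holds 2 of each direction.

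Over probe sets, 25 were annotated to the members and 19 passed the filter. Of these 15 were called, 9 lower and 6 higher, against 43.8% of 27023 probe sets called, 15.7% lower and 28.1% higher. The 6 members with several probe sets fell into 2 kinds. For Itgal, Itga6, Itgb1 and Itgb3 all probe sets above the filter lay on one side of 0, with sizes that differed, while Itga4 and Itga5 had some on either side. Between the probe sets of Itgb3 the log2 ratio shifted by 2.39 and between those of Itgal by 0.81, each with groups that did not overlap and an exact two-sided permutation p of 0.1, the smallest possible. The probe sets of Itga6 differed by 0.50 in the same measure (exact permutation p = 0.2).

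Unequal change within alpha and beta pairs was read as the log2 ratio of the alpha over the beta signal within each array, for 7 pairs at the brightest probe set of each gene. The ratio shows unequal change and not relative amounts. It cancels a factor common to an array, but not a shift that depends on brightness. The median log2 difference of all genes was 0.34 in the quartile of Itgax and Itga5 and -0.25 in that of Itgb1 and Itgb2. The ratios were not recomputed after quantile normalization or cyclic loess. For 6 of the 7 pairs the groups did not overlap, each with an exact two-sided permutation p of 0.1, which is the smallest possible and is 0.117 after Benjamini-Hochberg adjustment over the 7 pairs. No pair can therefore pass a threshold of 0.05.

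Itga6 over Itgb1 averaged -1.90 ± 0.07 on the knockout-labelled arrays and 0.53 ± 0.17 on the wild-type-labelled arrays (log2, SD, n = 3 each), a difference of -2.43, or -1.91 with the mean of the probe sets of each gene. Itga5 over Itgb1 differed by -1.28, and by 0.19 with that mean. Itga4 over Itgb1 differed by -2.68 at the falling Itga4 probe set and by -0.57 with the mean of probe sets. In the Itgb2 family Itgal over Itgb2 differed by 0.46, or 0.86 with the mean of probe sets, Itgam over Itgb2 by 0.38 and Itgax over Itgb2 by 2.54. The first value is smaller than the 0.81 between the 2 probe sets of Itgal. Itga4 over Itgb7 overlapped between the groups (-0.53, exact two-sided permutation p = 0.4), and with the mean of probe sets it was 1.31.

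**Figure D4:**
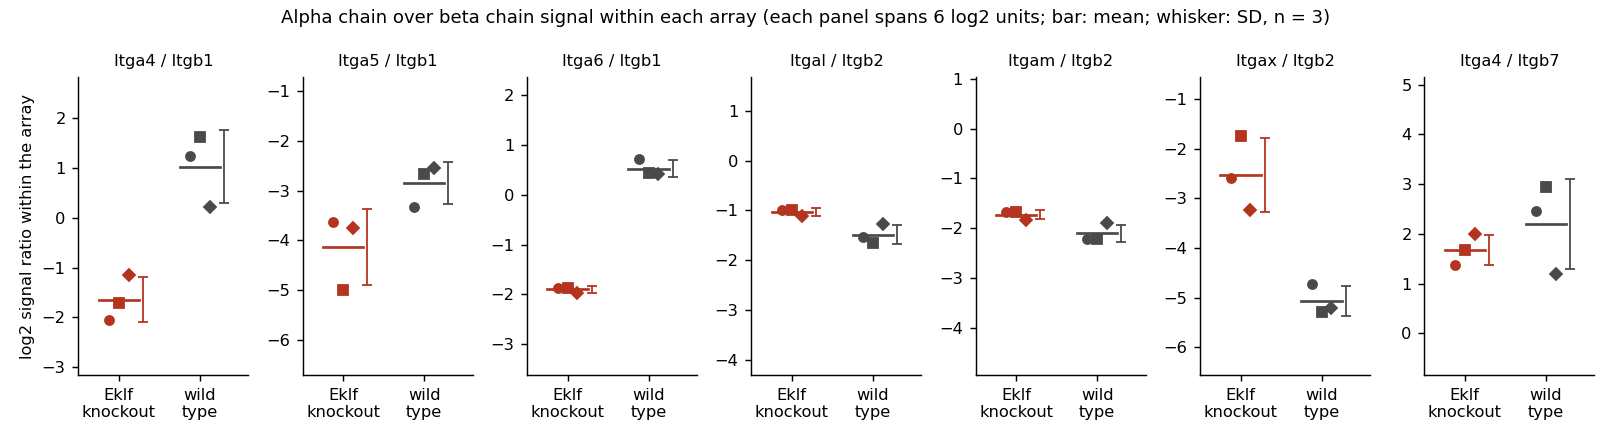
Log2 ratio of the alpha over the beta chain signal within each array for 7 integrin pairs, knockout-labelled in red on the left and wild-type-labelled in grey on the right, with mean and SD (n = 3 each). Each panel spans 6 log2 units, and the groups overlap for Itga4 over Itgb7 alone.

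Likeness of pattern was the root mean square difference of mean-centred log2 signals over the 6 arrays, taken between each member and all other genes tested. Itgal and Itgam were close to each other at 0.05 log2 units, so that Itgal was the gene most like Itgam and Itgam the second most like Itgal, after Cotl1 at 0.04. Itgb2 was most like Twf2 and Clec4a2, both at 0.06, and its nearest member was Itgam at 0.22. Itgb1 was most like Acot13 at 0.06 and Itgb3 most like Tatdn3 at 0.09, and the 2 rising members were each other's nearest member at 0.26. Itga6 was most like Add3 at 0.11, Itgb7 most like Ctps2 at 0.09, and these 2 members were again nearest to each other at 0.25. Itga4 at its brightest probe set was most like Fgd4 at 0.20, Itga5 most like Vegfb at 0.10 and Itgax most like Ptpru at 0.11. These are descriptions over 6 arrays of 2 groups.

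Of 11 other integrin chains tested, the knockout-labelled arrays had 7 higher and 1 lower, with a median log2 difference of 1.32 beside 0.14 for all genes, of which 27.9% were higher and 20.8% lower. Genes of these lists written as having risen or fallen had a limma adjusted p under 0.05. The 1 that fell was Itgb2l, a beta chain related to Itgb2, at 302, 314 and 178 on the knockout-labelled arrays, against 4370.2, 4871 and 6931 on the wild-type-labelled arrays (-4.36 ± 0.26, SE, limma adjusted p = 6.99e-06), while its other probe set gave -0.36. The matrix receptor chains Itga8 (2.42), Itga9 (1.94), Itga3 (1.32) and Itgb5 (0.89) rose. After median centring the calls of Itga3 (0.50, adjusted p = 0.145) and Itgb5 (0.07, adjusted p = 0.816) were lost, and Itgb5 was not called at its most variable probe set either (adjusted p = 0.393). Itgae, the other alpha partner of Itgb7, rose by 1.38, a call lost under all 3 rescalings (adjusted p 0.256 to 0.319). Itgae and Itga2, named for its low signal and not by the rule, had wild-type-labelled means of 68.2 and 80.2, under the filter signal of 98.6, so 2 of the 7 higher chains passed the filter through the group in which they were high. Those of Itga8 and Itga9, 101 and 103, were just above it.

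Of 22 integrin ligands tested, 16 were higher and 2 lower, with a median of 1.83, and 4 of the 16 passed the filter through the knockout-labelled group alone. Of the 2 lower, 1 passed through the wild-type-labelled group alone. Over all genes tested, 27.9% were called higher and 20.8% lower. Vcam1, the counter-receptor of Itga4 with Itgb1, had 1008, 966 and 1169 on the knockout-labelled arrays, against 305, 283 and 305 on the wild-type-labelled arrays (1.81 ± 0.18, SE, limma adjusted p = 8.01e-05). Of the 6 ligands with the smallest p, the plasma proteins Fgg (5.18), Fga (4.98) and Vtn (5.48) rose, and so did Vwf (3.50), a platelet and endothelial ligand. The wild-type-labelled mean of Vtn was 78.0, under the filter signal, so its fold rests on dim values. The laminin chains Lama5 (2.53) and Lamc1 (1.84) rose, as did fibronectin, Fn1 (1.61), whose call was lost after median centring (adjusted p = 0.113). Among the Itgb2 ligands, Icam2 fell by 1.51 (adjusted p = 0.000246), and F11r (2.15) and Jam3 (1.56) rose, 3 genes added to those of the rule once their values were seen. Icam1 (0.50 ± 0.25, SE, limma adjusted p = 0.116) did not pass, nor did Icam4, the red cell ligand (0.37, adjusted p = 0.287). Alongside, 13 of 14 tested hepatocyte markers and 10 of 13 endothelial and stromal markers were higher and 0 lower, with summed signals of 142530 to 215771 and 22593 to 31760.5 on the knockout-labelled arrays and 9376 to 9979.6 and 2486 to 3166 on the wild-type-labelled arrays. The lists overlap: Fga and Fgb are both ligands and hepatocyte markers, Vwf is also a megakaryocyte marker, Vcam1 a macrophage marker and Icam4 an erythroid marker. Of the higher calls, 1 hepatocyte marker and 3 endothelial and stromal markers had a wild-type-labelled mean under the filter signal. The hepatocyte sums cover all 15 markers with a probe set, also the 1 under the filter. The part of these cell types in the ligand values was not tested.

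Of 26 regulators of integrin activation tested, 5 were higher and 9 lower, with a median of -0.24. The share called, 53.8%, was near the 48.7% of all genes tested, of which 27.9% were called higher and 20.8% lower. Of the 5 higher, 2 had a wild-type-labelled mean under the filter signal. They passed the filter through the group in which they were high. Rassf5, the Rap effector that acts on Itgal with Itgb2, fell by 2.21. Sipa1 and Rap1gap, which both switch Rap off, went in opposite directions at -1.89 and 2.60. Cyth1, a cytohesin that binds the tail of Itgb2, fell by 1.66, although its other probe set gave 0.0060. Fermt2, the kindlin of non-blood cells, rose by 3.80, with a wild-type-labelled mean of 81.7 that lay under the filter signal. Dab2, an adaptor that binds beta tails, rose by 2.75. Fermt3, the kindlin of blood cells, fell by 0.56 (SE 0.15, limma adjusted p = 0.0144), a call lost after cyclic loess (0.0568) and with the mean of its probe sets (0.228). Tln1, talin, fell by 0.46 (adjusted p = 0.039), but 5 of the 6 fits with an array left out lost the call, and one of its other probe sets gave 0.73.

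Of 33 genes that signal from integrins, 16 were lower, 4 higher and 13 not called, with a median of -0.38. The share called was 60.6%, beside 48.7% of all genes tested, of which 20.8% were lower and 27.9% higher. Parvg, the parvin of blood cells, fell by 2.24, while Parvb rose by 1.90. Syk, a kinase used by Itgb2 and Itgb3, fell by 1.69. Pxn, paxillin, which binds the tail of Itga4, fell by 1.70, and Pak2, a kinase downstream of Rac, fell by 1.43. For Syk and Pak2 another probe set above the filter was on the other side of 0, at 0.57 and 0.67. The 2 other probe sets of Pxn above the filter gave -1.25 and -0.09.

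**Figure D5:**
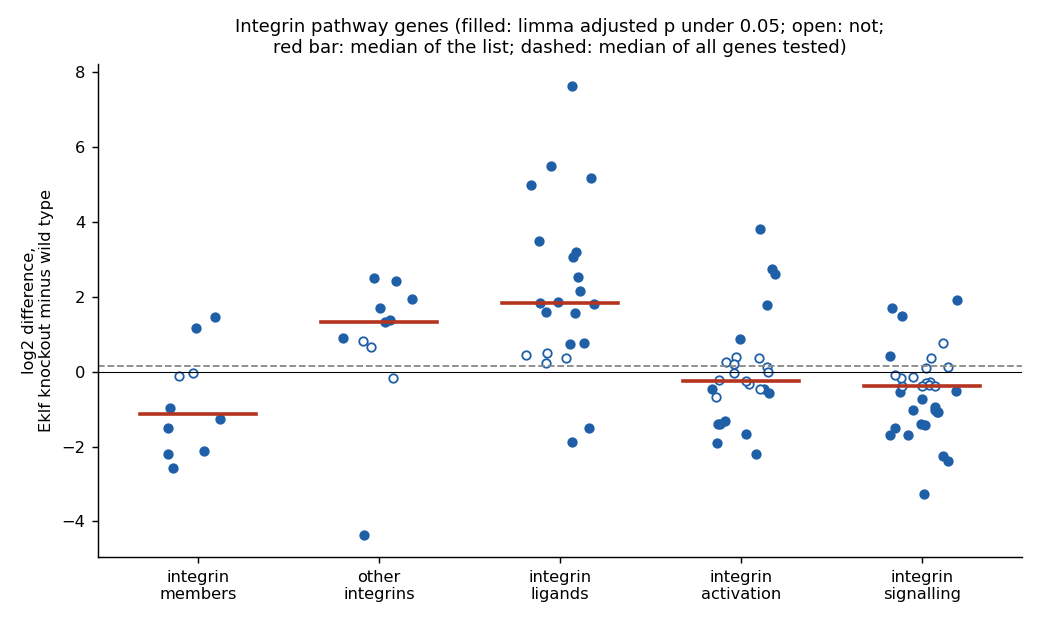
Log2 difference, knockout minus wild type, of each tested gene in the integrin members and in 4 lists of integrin pathway genes, filled where limma's adjusted p was under 0.05, with the median of each list as a red bar and the median of all genes tested (0.14) as a dashed line. The medians are -1.12 for the members, 1.32 for other integrins, 1.83 for ligands, -0.24 for activation and -0.38 for signalling.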

How the data were processed

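The authors deposited 1 linear intensity per probe set and array, the MAS5 signal. The submitters' processing notes name MAS5 and Expression Console, with no version in the sources used here. Probe sets were named from the platform annotation, with symbols updated through Entrez identifiers to RefSeq (34754 of 34958 probe sets with 1 gene). Values under 1 were set to 1 and log2 was taken. Features whose mean log2 signal was below 6.62, the 40th percentile over probe sets, were left out. The comparison used limma 3.58.1 and R 4.3.3 (eBayes with a variance trend, two-sided, Benjamini-Hochberg), once over 12799 genes at the probe set with the highest mean and once over 27023 probe sets. Adjusted p-values of a gene's brightest probe set are from the first fit. Those of the mean of its probe sets or its most variable one are from separate fits over the same 12799 genes. All others are from the second. The model was tested on simulated data.

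The named genes were all members, up to 6 of each pathway list by smallest p, and fixed partners and ligands. The members and lists were chosen with earlier results of these data known. Some list genes were not analysed here. The number of arrays, 3 per group, limits precision. In limma, a p-value weighs the group difference against the spread between these samples, with its variance drawn towards a trend over all genes. Alternatives were other scalings, offsets of 16 and 64, other filters, variance models and probe sets, the replicate block and each array left out. Figures used matplotlib 3.10.9 in Python 3.11.15.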

Additional observations from a re-analysis of the deposited data

How the results depend on the processing

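The count of integrin genes called was 7 or 8 of 10 over 19 alternatives and 8 in each fit that left out 1 array, and that of integrin probe sets was 11 to 17 over 17 alternatives (main count 15). Genes called over the whole table ran from 4602 to 7440 (main count 6232). Itgb2, Itgal, Itgam, Itga6 and Itgb7 kept their direction and their call in all 19 alternatives. Itga4 changed direction with the mean of its probe sets (0.32) and with its most variable probe set (2.13). Itga5, from -0.33 to 0.19 with each array left out, changed direction with array weights (0.025; 0.050 in the fit over probe sets), without knockout-labelled array 2 (0.19), without wild-type-labelled array 3 (0.045), with the mean of its probe sets (1.08) and with its most variable probe set (2.97). Itgax, from -0.34 to 0.16 with each array left out, was above 0 without knockout-labelled array 1 (0.093) or 3 (0.16) and without wild-type-labelled array 1 (0.10). The Itgb1 probe set 1426918_at was at -0.019 after median centring. Itga5 over Itgb1 (0.19) and Itga4 over Itgb7 (1.31) changed direction with the mean of probe sets. Among other genes, Itgav changed direction with quantile normalization (0.0021), cyclic loess (0.040), the mean of its probe sets (0.33) and its most variable probe set (0.33), Icam1 (-0.31) and Icam4 (-0.44) after median centring, Tln1 with the mean of probe sets (0.053) and its most variable one (0.73), and Fermt3 with its most variable one (0.32). In these the cause was not tested.

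Whether the replicate numbers pair the arrays was not settled. Deviations of same-numbered arrays correlated at only 0.036 to 0.090, and each array correlated best with its own number, a hint from the data only. With the replicate block 6277 genes and 8 integrin genes were called. Dim probe sets and 3 arrays per group limit what could be seen for Itgax and Itga5.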
